A study of Saccharomyces cerevisiae with 54 samples.

Results

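The 10 genes described here build the chitosan and dityrosine layers on the outside of the yeast spore. They were taken by systematic name from the table of 6571 genes, and the choice was made with earlier results of these data known. They are the chitin deacetylases CDA1 (YLR307W) and CDA2 (YLR308W), the chitin synthase CHS3 (YBR023C), the dityrosine genes DIT1 (YDR403W), DIT2 (YDR402C) and DTR1 (YBR180W), the wall assembly genes OSW1 (YOR255W) and OSW2 (YLR054C), and the lipid droplet genes LDS1 (YAL018C) and LDS2 (YOL047C). All 10 were found in the table and all 10 passed the filters on low counts.

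RNA from the MMTT and SS strains of Saccharomyces cerevisiae was sequenced at 9 times in sporulation medium, with 3 replicates per strain and time, 54 libraries in all. The MMTT strain is an allele replacement diploid, homozygous for MKT1(89G) and TAO3(4477C), made by mating haploids obtained from a heterozygous diploid. The SS strain is the wildtype S288c diploid and carries MKT1(89A) and TAO3(4477G). Both strains share the S288c background, and both were grown in rich glucose medium, then in acetate medium, and moved to 1% potassium acetate with amino acid supplements. The 9 times, in hours (h) and minutes (m) after the move, were 0h, 30m and 45m, then 1h10m and 1h40m, and later 2h30m, 3h50m, 5h40m and 8h30m.

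In a sporulating diploid, the wall of each of the spores is laid down from the inside out. Mannan and glucan form the inner layers, then chitosan, then a thin coat rich in dityrosine that gives spores much of their resistance. Chitin is made by Chs3 and is turned into chitosan by the deacetylases Cda1 and Cda2. Dit1 and Dit2 make a dityrosine precursor in the spore cytosol and Dtr1 exports it through the prospore membrane. Most spore wall genes belong to the middle and mid-late classes of sporulation genes, and many middle genes are switched on by the transcription factor Ndt80, which binds a promoter element called the middle sporulation element.

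Levels are given as CPM, which is the read count of a gene divided by its library's total scaled with a trimmed mean of M values (TMM) factor, per 1e6 reads. The values come from the 49 libraries that the study kept, 24 from MMTT and 25 from SS, with total counts between 1455002 and 5793502 and a median of 3641591. The 5 libraries that the study left out as potential outliers are given apart. Nothing in the labels says that replicates came from separate cultures, so the p-values measure only the spread between these libraries. Tests were edgeR's quasi-likelihood test, with p-values adjusted across every gene in the fit by the Benjamini-Hochberg method. A gene counted as called where its log2 fold change was above 2 (higher) or below -2 (lower) and its adjusted p was under 0.05. In RNA from whole cultures, fewer sporulating cells and less RNA per cell cannot be told apart.

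The labels name diploid cells, and marker genes that diploids keep low were measured as a check. Over the libraries, the summed level of 6 a-cell markers lay between 59.1 and 100.7 CPM in MMTT and between 68.7 and 120.8 CPM in SS. That of 4 alpha-cell markers lay between 32.4 and 85.3 CPM in MMTT and between 20.4 and 77.2 CPM in SS. The 7 markers of haploids of either mating type ranged from 145 to 426.8 CPM in MMTT and from 132.4 to 193.3 CPM in SS, and no marker was at 0 in all libraries. At 8h30m these 7 stood at 304.5 to 426.8 CPM in MMTT against 160.5 to 178.9 CPM in SS, and 1 of the 7, the G protein subunit gene STE18, was called higher in MMTT (log2 fold change 4.48, with 4% of all genes called higher). Their part in the results below was not tested.

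The sequence before each gene was searched for the core of the middle sporulation element. The letters searched were GNCACAAA and GNCGCAAA on both strands, and no 8 bases can match both. Within 250 bases before the start codon, 5 of the 10 genes held a match (CDA2, DTR1, OSW2, LDS1 and LDS2), against 6.01% of 6021 genes of the R64 annotation. Within 500 bases, 7 of the 10 did, DIT2 and CHS3 being added, against 11.6% of all genes. The sites follow in 30 bases of the gene's own strand, from the R64 genome, with the motif in capitals. All 5 are matches to GNCACAAA, and those of CDA2, OSW2 and LDS1 lie on the opposite strand and so appear as its reverse complement.
CDA2, XII:747760-747789: agatatttgatTTTGTGACgcaacgcaaaa
DTR1, II:589589-589618: tggtgaaaaacGACACAAActcctttgtaa
OSW2, XII:251155-251184, minus strand: gatcccttcatTTTGTGTCagtaattcagg
LDS1, I:119701-119730, minus strand: atctttctggtTTTGTGACacatggaataa
LDS2, XV:242845-242874, minus strand: gatcgcgtcgcGCCACAAAaacgaaacttc
The first base of the match lay between 116 bases (LDS2) and 195 bases (OSW2) before the start codon. DIT2 had its match at 333 bases and CHS3 had matches at 446 and 415 bases. CDA1, DIT1 and OSW1 had none in these windows. A match is a description of the letters and not a measured binding site, and its bearing on the levels below was not tested.

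In the R64 annotation several of the genes are neighbours. CDA1 (XII:745620-746525) and CDA2 (XII:747937-748875) lie in the same orientation, 1411 bases apart, and share 66.2% of their aligned coding bases. DIT2 (IV:1272234-1273703, minus strand) and DIT1 (IV:1274602-1276212) are transcribed away from each other, out of one intergenic region of 898 bases. LDS1 and LDS2 lie on different chromosomes and share 59.5% of their aligned coding bases, and LDS2 stands 303 bases from RRT8, a further member of its family. No gene of the 10 overlapped another annotated gene, and none had a near copy at 90% identity or more over at least 100 bases. DTR1 is at II:589741-591459, CHS3 at II:284428-287925 (minus strand) and OSW1 at XV:807271-808107. OSW2 (XII:248717-250978), LDS1 (I:118564-119541) and LDS2 (XV:241614-242747) are on the minus strand. OSW2 and LDS2 have 2 coding exons and the others have 1.

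At 8h30m, the latest time sampled, 8 of the 10 genes were higher in the MMTT strain than in the SS strain, and 4% of the 6031 genes tested were called higher there. The median log2 fold change of the 10 was 5.14, beside -0.05 over all genes tested. DIT1 and CHS3 were not called. The lipid droplet gene LDS1 had 1123, 591 and 851 CPM in the MMTT libraries, against 1.94, 2.27 and 1.28 CPM in the SS libraries. The lowest MMTT library was far above the highest SS library. Its log2 fold change was 8.85 ± 0.64 (approximate SE), with an adjusted p of 1.2e-13 in edgeR's quasi-likelihood test. The SS side rested on 20 reads over 3 libraries, against 11451 reads in MMTT, and the ratio of the scaled counts was 462 with an exact Clopper-Pearson 95% interval from 299 to 757, which covers counting error only.

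Its relative LDS2 had 958, 592 and 692 CPM in MMTT and 3.89, 4.83 and 4.08 CPM in SS. All 3 MMTT libraries stood above all 3 SS libraries. The log2 fold change was 7.44 ± 0.56 (adjusted p 2.1e-13), from 9988 reads in MMTT and 47 reads in SS. Lds1 and Lds2 sit on lipid droplets that gather beside the prospore membrane while the outer wall forms. RRT8, whose product sits with them, stood at 164 ± 20.1 CPM in MMTT and 109.7 ± 1.73 CPM in SS (SD, n = 3 each) and was not called (log2 fold change 0.58).

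OSW1, which is needed to assemble the outer wall, had 427, 219 and 445 CPM in MMTT and 0.833, 0.568 and 0.765 CPM in SS. The groups did not overlap. The SS values stood for 3, 2 and 3 reads. The log2 fold change was 8.91 ± 0.64 (adjusted p 1.1e-13), and the ratio of the scaled counts was 503, with a counting interval from 255 to 1166.

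DTR1, the exporter of the dityrosine precursor, had 673, 339 and 558 CPM in MMTT and 1.11, 3.12 and 1.02 CPM in SS. Again no SS library reached the range of MMTT. The log2 fold change was 8.22 ± 0.64 (adjusted p 4.4e-13), from 7052 reads against 19. The ratio of the scaled counts was 299.5, with a counting interval from 191.7 to 497.8.

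Both deacetylase genes were higher in MMTT at this time. CDA2 had 1124, 675 and 1010.4 CPM in MMTT and 35.3, 26.1 and 29.1 CPM in SS. CDA1 had 538, 327 and 475 CPM in MMTT and 13.1, 6.82 and 13.5 CPM in SS. Both genes were above SS in each MMTT library. The log2 fold changes were 4.95 ± 0.44 for CDA2 (adjusted p 1.1e-11) and 5.32 ± 0.45 for CDA1 (adjusted p 3e-12).

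DIT2, which encodes the cytochrome P450 that couples the tyrosine derivatives, had 34.0, 19.9 and 33.7 CPM in MMTT and 3.33, 3.69 and 4.08 CPM in SS. Its groups did not overlap and its log2 fold change was 2.97 ± 0.43 (adjusted p 7e-07). OSW2, another wall assembly gene, had 304, 167 and 247 CPM in MMTT and 46.1, 38.4 and 30.9 CPM in SS. Here too all MMTT libraries were higher, with a log2 fold change of 2.64 ± 0.34 (adjusted p 6.8e-08).

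DIT1 and CHS3 did not pass. DIT1, which makes the formyl tyrosine from which the precursor is built, had 38.1, 29.9 and 39.1 CPM in MMTT and 30.0, 25.3 and 25 CPM in SS. The lowest MMTT library lay just under the highest SS library, and the log2 fold change was 0.42 ± 0.21 (adjusted p 0.1). CHS3 had 195, 164 and 181 CPM in MMTT and 137, 161 and 150.3 CPM in SS. These groups did not overlap, but the log2 fold change was 0.27 ± 0.17 (adjusted p 0.21). DIT1 and DIT2, which share an upstream region, thus had different calls.

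**Figure D1:**
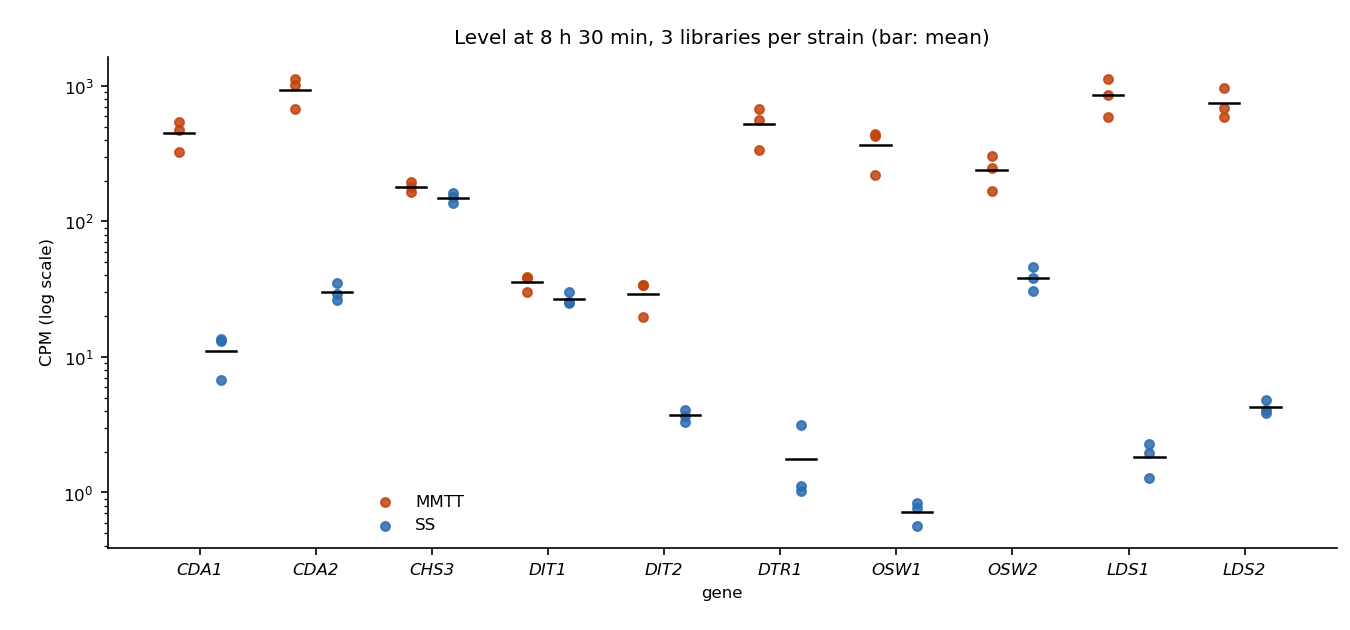
Level of each gene at 8h30m in CPM on a log axis, with 1 point per library (3 per strain), MMTT left of SS, and a bar at the mean. For 8 genes every MMTT point lies well above every SS point, while the points of CHS3 and DIT1 lie close together. Those of CHS3 do not overlap either, and the share of all genes without overlap was not computed.

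Levels of different genes can be set side by side only per length, here as CPM per kilobase of coding sequence. In MMTT at 8h30m the order was CDA2 (997 ± 249, SD, n = 3), LDS1 (874 ± 272), LDS2 (698 ± 177), CDA1 (493 ± 119), OSW1 (435 ± 150), DTR1 (304 ± 98.9), OSW2 (110.1 ± 31.5), CHS3 (51.5 ± 4.45), DIT1 (22.2 ± 3.12) and DIT2 (19.9 ± 5.49). The ranges of neighbours overlapped from CDA2 down to DTR1 and again for DIT1 and DIT2. They did not overlap between DTR1 and OSW2, OSW2 and CHS3, or CHS3 and DIT1. In SS at 8h30m the highest was CHS3 (42.7 ± 3.45 CPM per kilobase) and the lowest OSW1 (0.863 ± 0.165), and DIT2, LDS1, DTR1 and OSW1 overlapped as neighbours at the low end. At 0h the first 6 places were the same in both strains, with OSW2 at 82.0 ± 6.89 CPM per kilobase in MMTT (n = 3) and 79.4 ± 13.5 in SS (n = 2), followed by CHS3, CDA1, DIT1, CDA2 and LDS2.

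Before 8h30m the strains differed at fewer genes. Over all 9 times, 28 of the 90 gene and time combinations were called higher in MMTT and 1 was called lower. At 0h no gene of the 10 was called, and 0.547% of all genes were called higher. In edgeR 2 of the 10, CHS3 (log2 fold change 0.46) and LDS1 (3.67), had an unadjusted p under 0.05 at 0h, and DESeq2 called LDS1 alone (3.80, adjusted p 0.017). At 30m LDS2 and OSW1 were called higher (1.71% of all genes). At 45m LDS1 was (2.4%), at 1h10m LDS1 and OSW1 (1.26%), and at 1h40m LDS1 and OSW1 again (0.763%).

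These early calls rest on few SS reads. OSW1 had 0 reads in both SS libraries at 30m and 2, 8 and 12 reads in the MMTT libraries. Against a floor of 3 counts per SS library it was at least 2.23-fold higher in MMTT on the mean CPM, and leaving out any of MMTT replicate 2, SS replicate 2 or SS replicate 3 at 30m ended the call (adjusted p 0.055 to 0.13). LDS2 had 8.54, 4.81 and 5.94 CPM in MMTT and 0.861 and 1.5 CPM in SS at 30m. The libraries of the strains did not overlap, but the call (log2 fold change 2.36, adjusted p 0.037) was lost without MMTT replicate 1, SS replicate 2 or SS replicate 3 (adjusted p 0.087 to 0.18). LDS1 at 45m stood on 34 reads in 2 MMTT libraries and 2 reads in 3 SS libraries, a ratio of 27.1 with a counting interval from 6.95 to 233, and its call was lost without MMTT replicate 1. The call of OSW1 at 1h10m, with 23 reads in MMTT and 3 in SS (ratio 7.82, counting interval 2.36 to 40.7), had an adjusted p of 0.046 and was lost when any of 25 single libraries was left out, and also without the filter on low counts. DESeq2 called DTR1 higher at 30m (log2 fold change 4.25, adjusted p 0.022) and 45m (2.76, adjusted p 0.024), and OSW1 at 45m (2.14, adjusted p 0.047). In edgeR the adjusted p-values of these 3 were 0.06, 0.12 and 0.2, and their SS sides held 1, 5 and 8 reads.

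LDS1 was called higher in MMTT at each time from 45m on. At 1h40m it had 10.4, 3.87 and 12.0 CPM in MMTT and 0.839, 0 and 0.689 CPM in SS. No SS library reached the lowest MMTT library, and the log2 fold change was 4.14 ± 0.95 (adjusted p 0.0015). With 119 reads in MMTT and 5 in SS, the ratio of the scaled counts was 19.1, with a counting interval from 7.96 to 59.9. At 0h LDS1 had 6.55, 3.07 and 3.46 CPM in MMTT and 0.305 and 0.327 CPM in SS, which were 1 read each, and it was not called (adjusted p 0.077).

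At 2h30m 5 genes were called higher in MMTT: LDS1, OSW1, DTR1, LDS2 and CDA1, and 3.2% of all genes were. The 2 MMTT libraries of this time stood far apart. LDS1 had 16.8 CPM in MMTT replicate 1 and 195 CPM in replicate 2, against 0.193, 0.890 and 0.877 CPM in SS. DTR1 had 8.19 and 105.3 CPM in MMTT and 1.74, 0.297 and 1.46 CPM in SS. CDA1 had 35.1 and 177 CPM in MMTT and 12.0, 11.9 and 14.9 CPM in SS. Both MMTT libraries were above all 3 SS libraries in each of these genes, and replicate 2 was the higher one throughout. The summed level of the 10 genes was 317 CPM in replicate 1 and 1272 CPM in replicate 2, beside 293 to 347 CPM in SS. The log2 fold changes were 7.43 ± 0.75 for LDS1, 7.17 ± 0.74 for OSW1, 5.51 ± 0.68 for DTR1, 5.37 ± 0.58 for LDS2 and 3.05 ± 0.45 for CDA1. Without replicate 2, CDA1 was no longer called (log2 fold change 1.48, adjusted p 0.052), and the other 4 remained called. What sets replicate 2 apart was not tested.

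At 3h50m and at 5h40m the same 4 genes were called higher in MMTT: LDS1, DTR1, LDS2 and OSW1. Of all genes, 1.51% were called higher at 3h50m and 2.64% at 5h40m. LDS1 had 48.3, 67.9 and 23.8 CPM in MMTT and 0, 0.297 and 0.176 CPM in SS at 3h50m. DTR1 had 33.3, 50.1 and 14.2 CPM in MMTT and 0, 0.297 and 0.351 CPM in SS at that time. The MMTT libraries spread over a several-fold range, yet each was above every SS library. The SS side of LDS1 was 2 reads and that of DTR1 3 reads, so the ratios of the scaled counts, 279.7 and 130.4, had counting intervals from 77.1 to 2315 and from 44.3 to 635. CDA1 and CDA2 had adjusted p-values of 0.0034 and 0.0024 at 5h40m but log2 fold changes of 1.92 and 1.97, just under the threshold. CDA2 passed it with DESeq2 (2.00) and without MMTT replicate 2 of that time (2.18), and CDA1 did without SS replicate 1 (2.24).

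**Figure D2:**
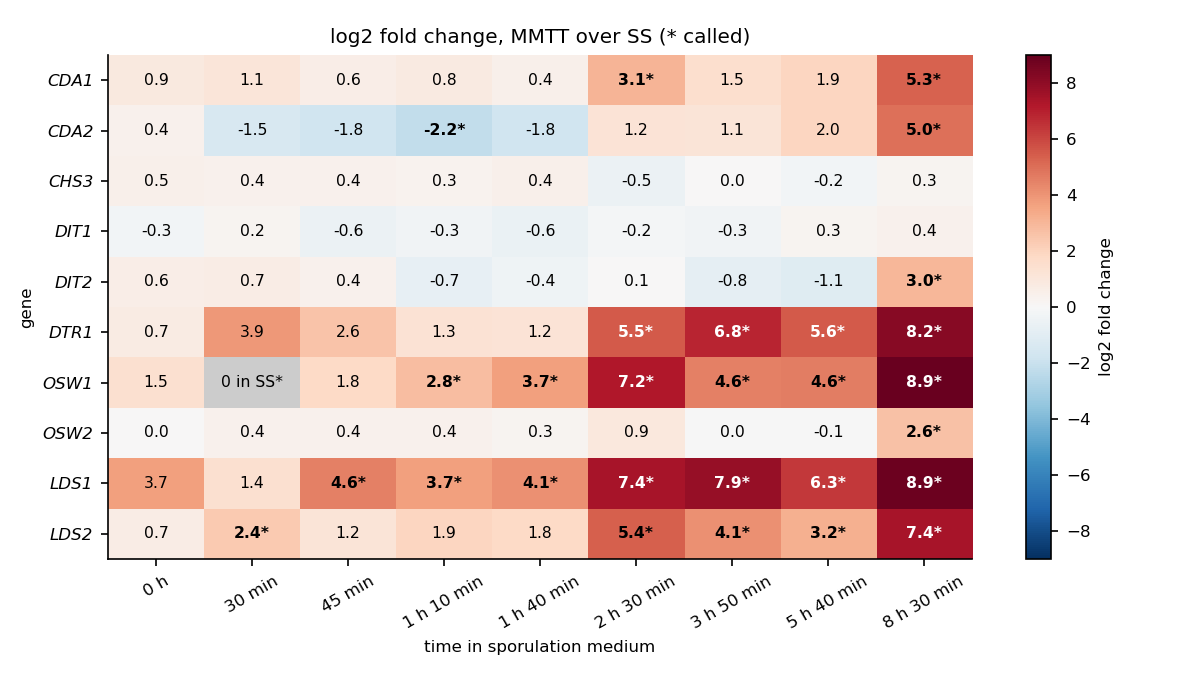
Fitted log2 fold change of MMTT over SS for each gene (down) at each time (across), with an asterisk where the gene was called. The grey square marks OSW1 at 30m, where both SS libraries had 0 reads. Red deepens from 2h30m in 5 genes, and CDA2 has the only blue square with an asterisk.

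CDA2 ran the other way early in the course. At 1h10m it was lower in MMTT, with 13.9, 14.5 and 26.6 CPM, against 66.0, 75.2 and 114 CPM in SS. The groups did not overlap, and the log2 fold change was -2.21 ± 0.42 (adjusted p 9.7e-05). It was the only one of the 10 called lower at any time, and 0.282% of all genes were called lower at 1h10m. Without SS replicate 3 the log2 fold change became -1.93 (adjusted p 0.0016), past the p threshold but short of the fold threshold. At 30m, 45m and 1h40m its log2 fold changes were -1.47, -1.82 and -1.83, with adjusted p-values of 0.015, 0.0072 and 0.001, and none reached the fold threshold. With all 54 libraries the value at 45m turned to 1.79 (adjusted p 0.045), and the adjusted p-values at 30m and 1h40m were 0.17 and 0.062. The 1h10m call was kept (-2.21, adjusted p 0.018).

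In SS the level of CDA2 passed through an early peak. It had 6.41 and 2.62 CPM at 0h, 30.1 and 39.4 CPM at 30m, 47.8, 64 and 66.8 CPM at 45m, and 106, 89.0 and 106 CPM at 1h40m. The level then came down, with 46.2, 70.9 and 79.2 CPM at 2h30m, 26.0, 41.3 and 31.8 CPM at 3h50m, and 15.5, 15.7 and 16.7 CPM at 5h40m. At 8h30m it was 35.3, 26.1 and 29.1 CPM, above all 3 libraries of 5h40m. The log2 fold change of 5h40m against 1h40m in SS was -2.66 ± 0.25 (adjusted p 3.8e-07), and CDA2 alone of the 10 was called there. Of all genes 0.173% were called lower and 0.551% higher in that comparison, which was chosen after the values had been seen.

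In MMTT CDA2 had 8.04, 4.43 and 5.67 CPM at 0h, 12.3, 8.72 and 16.0 CPM at 30m, 29.8, 17.7 and 37.1 CPM at 1h40m, 36.0 and 270.5 CPM at 2h30m, 75.2, 104.5 and 37.3 CPM at 3h50m, and 71.8 and 53.3 CPM at 5h40m. The change from 0h to 1h10m differed between the strains by -2.62 ± 0.81 on the log2 scale, MMTT minus SS (adjusted p 0.032). In that contrast, also chosen after the values had been seen, 0.962% of all genes were called lower and 0.149% higher. The call was lost when any of 6 single libraries was left out, among them SS 0h replicate 3 (log2 difference -2.15, adjusted p 0.17), and with all 54 libraries (-2.55, adjusted p 0.24).

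**Figure D3:**
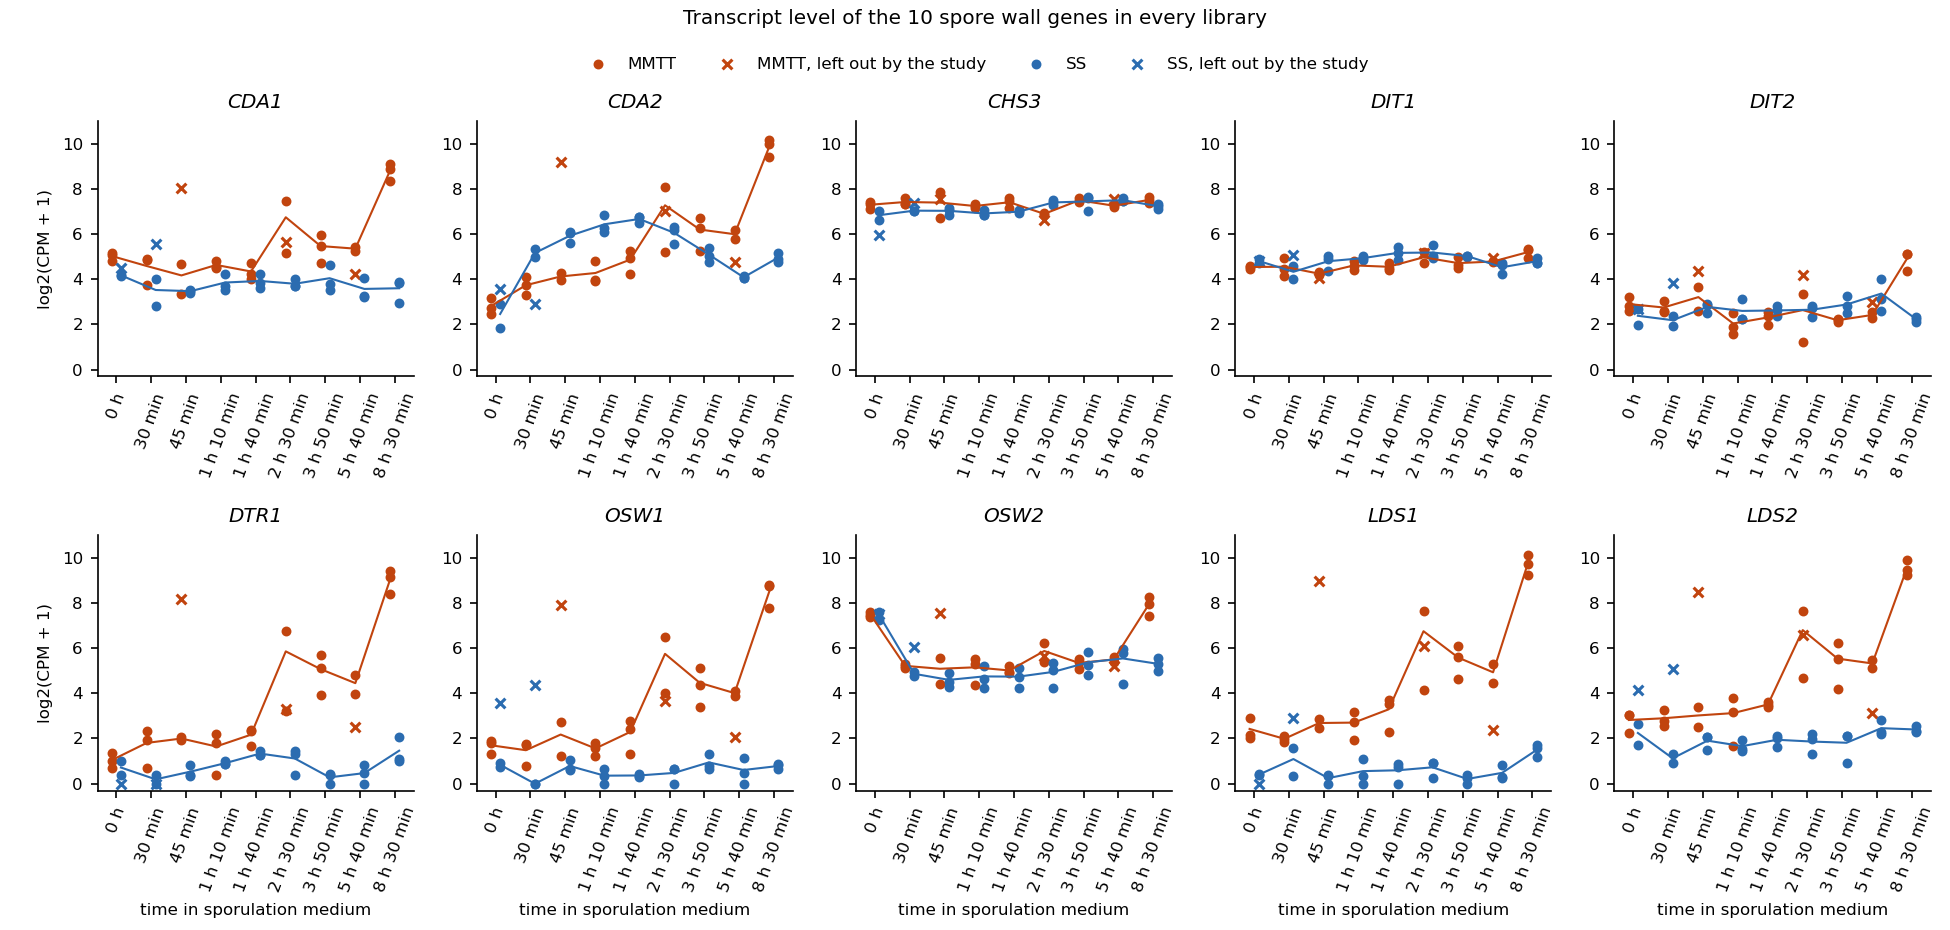
Level of each gene as log2(CPM + 1) against time in sporulation medium, with MMTT libraries left of SS libraries at each time, lines through the group means and crosses for the 5 libraries left out by the study. CDA2 peaks early in SS and late in MMTT, OSW2 falls after 0h in both strains, and CHS3 and DIT1 vary less than the others.

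Within the MMTT strain, each time was set against 0h. No gene of the 10 was called higher at 30m, 45m or 1h10m, when 1.11%, 2.21% and 0.795% of the 6419 genes tested were. In edgeR 1 of these 30 values above 0h had an unadjusted p under 0.05 (CDA2 at 1h10m, log2 fold change 1.58), and DESeq2 called none. With all 54 libraries, which bring in MMTT replicate 2 of 45m, CDA2, DTR1, LDS1, LDS2 and OSW1 were called higher at 45m. Their log2 fold changes were then 4.36 to 6.51, with adjusted p-values from 0.0021 to 0.01. In the study's set CDA2 was the first, at 1h40m (log2 fold change 2.18, adjusted p 0.0089, with 0.795% of all genes called higher). Its call was lost without MMTT replicate 3 of that time and with all 54 libraries (adjusted p 0.16). At 2h30m, 3h50m and 5h40m the same 5 genes were called higher, LDS1, DTR1, CDA2, LDS2 and OSW1, where 3.57%, 2.31% and 2.74% of all genes were. With all 54 libraries DTR1 and CDA2 kept the call at 3h50m, while LDS1, LDS2 and OSW1 lost it (adjusted p 0.065 to 0.093). At 5h40m CDA2 alone kept it then (adjusted p 0.04), and the other 4 had adjusted p-values from 0.12 to 0.28. Without MMTT replicate 2 of 2h30m, DTR1 (log2 fold change 2.93, adjusted p 0.05) and LDS1 (1.94, adjusted p 0.053) were no longer called at that time. At 5h40m, with 2 libraries, LDS1 lost its call without replicate 1 and OSW1 without replicate 2 (adjusted p 0.094 and 0.064).

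At 8h30m against 0h, 7 genes were higher in MMTT, CDA1 and DIT2 being added to these 5, and 4.8% of all genes were. The log2 fold changes were 8.91 ± 0.85 for DTR1, 7.59 ± 0.73 for LDS1, 7.34 ± 0.67 for OSW1, 7.26 ± 0.64 for CDA2, 6.93 ± 0.69 for LDS2, 3.83 ± 0.47 for CDA1 and 2.17 ± 0.45 for DIT2. Their 8h30m libraries all stood above their 0h libraries, as did those of DIT1, which was not called. How many of all genes stood apart in this way was not computed. DIT1 had an adjusted p of 0.013 at a log2 fold change of 0.68 ± 0.21, under the fold threshold, and CHS3 had 0.21 ± 0.18 (adjusted p 0.37). Over the 8 later times 23 of the 80 combinations were called higher and 6 lower.

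Between 5h40m and 8h30m, 8 genes rose in MMTT, all but DIT1 and CHS3, and 2.23% of all genes were called higher. LDS1 had 1123, 591 and 851 CPM at 8h30m, against 37.7 and 21.1 CPM at 5h40m (log2 fold change 4.86 ± 0.72, adjusted p 9.1e-05). DIT2 had 34.0, 19.9 and 33.7 CPM at 8h30m and 3.87 and 4.85 CPM at 5h40m (log2 fold change 2.74 ± 0.55, adjusted p 0.0016). None of the libraries of these times overlapped in the 8 genes, but none did in DIT1 (adjusted p 0.22) or CHS3 (adjusted p 0.41) either. The share of all genes without overlap was not computed.

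OSW2 followed a course of its own, high at 0h, low in between and, in MMTT, high again at the end. In MMTT it had 176, 165 and 195 CPM at 0h, 36.4, 38.5 and 33.2 CPM at 30m, 35.4, 28.6 and 29.5 CPM at 1h40m, 47.7 and 40.5 CPM at 5h40m, and 304, 167 and 247 CPM at 8h30m. In SS it had 152 and 194 CPM at 0h, 29.9 and 26.2 CPM at 30m, 20.01, 61.8 and 54.6 CPM at 5h40m, and 46.1, 38.4 and 30.9 CPM at 8h30m. The strains overlapped at 0h (log2 fold change 0.05, adjusted p 0.95) and were apart at 8h30m. In MMTT OSW2 was called lower than at 0h at 30m, 45m, 1h10m, 1h40m, 3h50m and 5h40m, with log2 fold changes from -2.54 to -2.02. Of all genes, 0.857%, 0.748%, 0.872%, 0.888%, 0.857% and 0.904% were called lower at these times. The call at 45m was lost without MMTT replicate 3 of that time and with all 54 libraries (log2 fold change -1.09, adjusted p 0.078). That at 5h40m was lost without MMTT replicate 2 of that time or replicate 3 of 0h.

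In the SS strain against 0h, CDA2 was called higher and OSW2 lower at each of 7 times, all but 5h40m, and no other gene of the 10 was called. Of the 6350 genes tested, 1.18% were called higher at 30m, 2.2% at 45m, 2.13% at 1h10m, 1.46% at 1h40m, 1.76% at 2h30m, 2.08% at 3h50m, 2.14% at 5h40m and 3.31% at 8h30m. Called lower were 0.299% at 30m, 0.756% at 45m, 1.02% at 1h10m, 0.866% at 1h40m, 1.06% at 2h30m, 0.819% at 3h50m and 0.724% at 8h30m. CDA2 had log2 fold changes between 2.72 ± 0.37 at 8h30m and 4.46 ± 0.36 at 1h40m. OSW2 lay between -2.92 ± 0.39 at 45m and -2.13 ± 0.37 at 3h50m, and its calls at 3h50m and 8h30m were lost without SS 0h replicate 3, that at 3h50m also without SS replicate 3 of that time. At 5h40m CDA2 (1.80, adjusted p 0.00073) and OSW2 (-1.90, adjusted p 0.00037) were short of the fold threshold, and both passed it without SS 0h replicate 2. LDS1, OSW1 and DTR1 stayed at or below 3.12 CPM in every SS library of the study's set.

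CHS3 and DIT1 were called in none of the comparisons between strains or times. CHS3 lay between 102 and 231 CPM in the MMTT libraries and between 98.7 and 199 CPM in the SS libraries. DIT1 lay between 16.5 and 39.1 CPM in MMTT and between 15.2 and 45.0 CPM in SS. In SS, CHS3 stood above 0h at 2h30m, 3h50m, 5h40m and 8h30m with adjusted p-values from 0.0031 to 0.049, at log2 fold changes of 0.41 to 0.66. The largest gap between the strains for CHS3, at 2h30m, was -0.51 ± 0.20 on the log2 scale, MMTT over SS (adjusted p 0.045). That for DIT1, at 1h40m, was -0.63 ± 0.21 (adjusted p 0.024). In SS, DIT1 at 5h40m stood at a log2 fold change of -0.67 ± 0.21 against 1h40m (adjusted p 0.029).

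The difference between the courses was tested directly. The interaction of strain and time, over 8 coefficients at an adjusted p under 0.001, was called for 7 of the 10 genes, CDA1, CDA2, DIT2, DTR1, OSW1, OSW2 and LDS2, and for 14.8% of all genes. The adjusted p-values of the others were 0.018 for LDS1, 0.024 for CHS3 and 0.034 for DIT1. The change from 0h to 8h30m was larger in MMTT than in SS for the same 7 genes (2.5% of all genes), with log2 differences from 2.35 ± 0.66 for DIT2 to 7.5 ± 2.51 for DTR1. LDS1 had 5.18 ± 3.25 (adjusted p 0.28), with 2 SS reads at 0h. Without SS 0h replicate 2, which leaves 1 SS library at 0h, 3 genes were called, and without SS 0h replicate 3 DTR1 was lost (adjusted p 0.4). With all 54 libraries DTR1 (adjusted p 0.23) and OSW1 (adjusted p 0.066) were lost, which left 5, and DESeq2 added LDS1 (adjusted p 0.002).

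The libraries that the study left out differed in these genes. MMTT 45m replicate 2, with 3559383 reads, had a summed level of 2629.5 CPM over the 10 genes, beside 241 and 315.5 CPM in the other MMTT libraries of 45m and 251 to 270.5 CPM in SS at 45m. In it LDS1 was at 491 CPM, CDA2 at 577 CPM and DTR1 at 290.3 CPM, while DIT1 was at 15.6 CPM. Over the 300 most variable genes it was nearest to the MMTT 8h30m group (r = 0.94 across genes, against 0.565 with its own group). MMTT 5h40m replicate 3 had 322 CPM, below the 461 and 404 CPM of the others, and was nearest to the MMTT 1h40m group (r = 0.953, against 0.902). The other 3 were shallow, with 159701 to 303349 reads, and were nearest to their own groups. With all 54 libraries, 8 genes were still called higher in MMTT at 8h30m, the interaction was called for 3 genes in place of 7, and at 45m CDA1, DTR1, LDS2 and OSW1 were called as well. The share of all genes called with all 54 was not computed. The calls of LDS2 and OSW1 at 30m and of LDS1 and OSW1 at 1h10m and 1h40m were lost with all 54. Why these libraries stand apart was not tested.

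**Figure D4:**
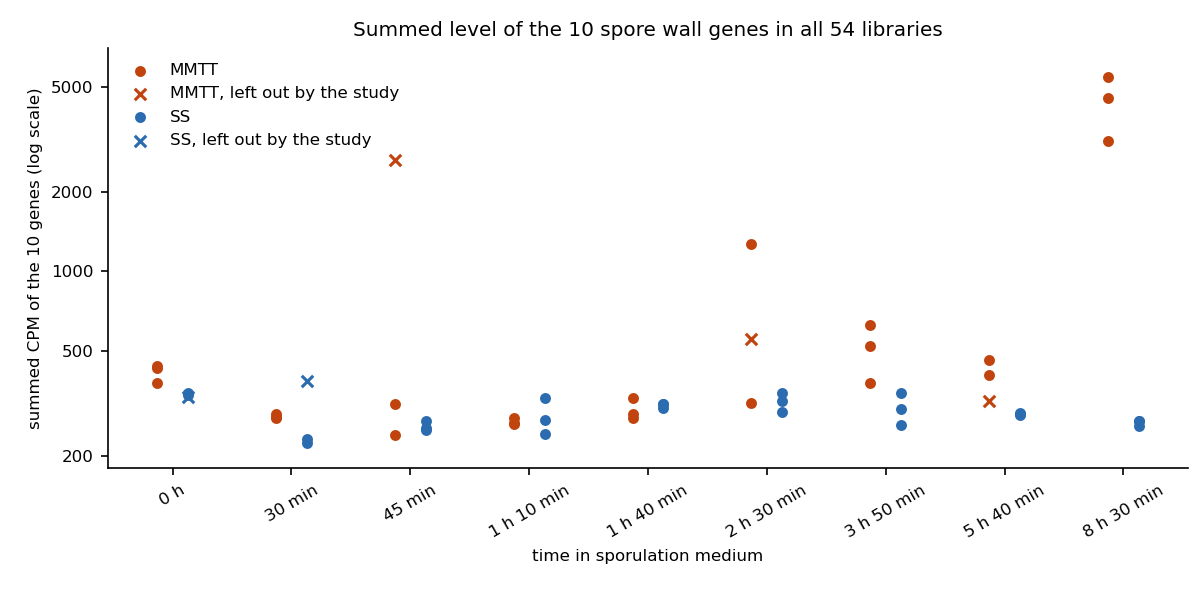
Summed CPM of the 10 genes (log axis) in each of the 54 libraries against time, MMTT left of SS, with crosses for the libraries left out by the study. The 3 MMTT libraries of 8h30m lie between 3124 and 5414 CPM, MMTT replicate 2 of 2h30m at 1272 CPM and the left-out MMTT library of 45m at 2629.5 CPM, while the SS libraries stay at or below 385 CPM.

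Genes of the same pathway were counted from lists of gene symbols, for MMTT against SS at 8h30m. Of the 6031 genes tested 4% were called higher in this comparison and 0.514% lower. Of 4 genes that make UDP-N-acetylglucosamine, the building block of chitin, 3 were higher: GFA1, which catalyses the entry step (1882 CPM in MMTT, 299.6 CPM in SS, log2 fold change 2.65 ± 0.22), QRI1 (2.60 ± 0.21) and GNA1 (2.41 ± 0.29). The fourth, PCM1, had 1.19 ± 0.13. The median of these 4 was 2.50, beside -0.05 over all genes. Of 12 genes for chitin synthases and their partners 1 was higher, the chitinase-like gene CTS2 (5.45 ± 0.41), and the median was 0.01. SHC1, the activator of Chs3 in sporulating cells, had 192 ± 4.72 CPM in MMTT and 142 ± 5.70 CPM in SS (SD, n = 3 each), with a log2 fold change of 0.44 that was not called. SKT5, the activator in growing cells, had 83.6 ± 9.56 CPM in MMTT and 137.5 ± 27.0 CPM in SS (-0.72, not called).

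Of 15 further outer spore wall genes 8 were higher in MMTT and none lower, with a median of 4.11. Of all genes tested 4% were called higher and 0.514% lower. They ranged from TEP1 (4.11 ± 0.34) to GAT4 (7.79 ± 1.08), and GAT4 had 2038 reads in MMTT and 7 in SS (ratio 235, counting interval 114 to 585). RRT12, a protease-like gene of the dityrosine layer, had 869 ± 267 CPM in MMTT and 9.85 ± 3.14 CPM in SS (log2 fold change 6.45 ± 0.49). Of 9 inner spore wall genes 7 were higher, from CRR1 (2.10 ± 0.24) to SPS2 (10.04 ± 0.83), with a median of 5.37. GSC2 (0.25) and SPS100 (-1.62) were not called. SPS2 had 35572 reads in MMTT and 27 in SS. Against 0h, SS at 8h30m had 1 gene higher in these 5 lists, LOH1 among the outer wall genes (log2 fold change 2.53). The lists held 12, 4, 15, 9 and 13 genes, and 3.31% of all genes were called higher there.

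Of 13 regulators of middle and mid-late genes 6 were higher in MMTT at 8h30m, with a median of 1.31, and 4% of all genes were called higher. NDT80 had 471 ± 129 CPM in MMTT and 29.4 ± 1.62 CPM in SS (4.0 ± 0.31, adjusted p 4.2e-13). SMK1, a spore wall MAP kinase, had 181 ± 57.2 CPM in MMTT and 0.545 ± 0.0304 CPM in SS, from 2432 and 6 reads (ratio 327, counting interval 150.1 to 892). SUM1, a repressor of middle genes, had 130.5 ± 6.35 CPM in MMTT and 159.9 ± 10.2 CPM in SS (-0.29, not called). SWM1 had the smallest called change (2.22 ± 0.19). At 2h30m NDT80 had a log2 fold change of 2.32 (adjusted p 1.5e-06), and its 2 MMTT libraries averaged 94.8 ± 76.2 CPM, against 19.2 ± 0.67 CPM in SS.

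**Figure D5:**
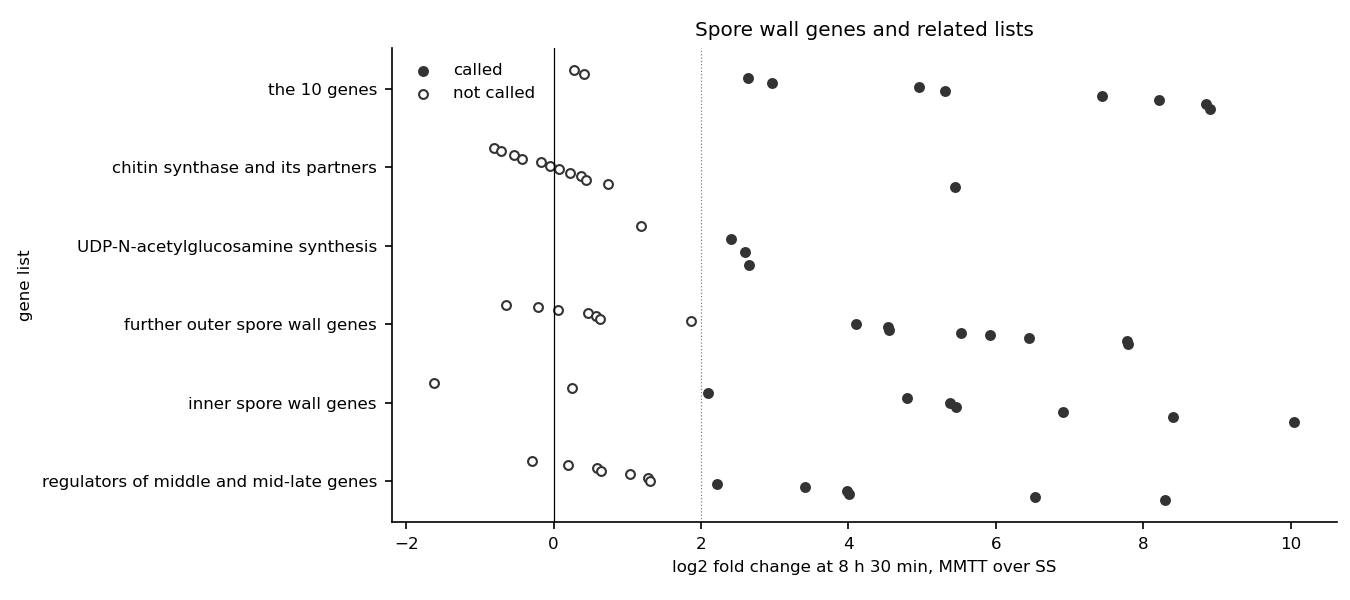
Fitted log2 fold change of MMTT over SS at 8h30m for the 10 genes and for 5 related lists, with filled points for called genes, open points for the others and a dotted line at the fold threshold of 2. Chitin synthase genes and their partners lie around 0 apart from CTS2, and the wall lists spread to 10.04.

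The courses of the 10 genes were not all alike. Over the 18 group means, each gene's log2 CPM was correlated with the mean of the 10, as a description of likeness across groups that share libraries. Each gene was itself part of that mean, and genes with a wide range weigh most in it. The order of the 10 is therefore partly set by the measure. LDS2 (r = 0.988), DTR1 (0.984), OSW1 (0.982), CDA1 (0.971) and LDS1 (0.962) followed the mean closely. CDA2 (0.675), DIT2 (0.566), OSW2 (0.538), DIT1 (0.346) and CHS3 (0.302) did so less. Among the 6031 genes tested, the 10 others most like the mean were YGR273C (r = 0.992), BIL2, YFL012W, SPS22, SMK1, RRT12, YNL033W, GAS2, ECM23 and YDR042C (r = 0.973). Of these, SPS22 and GAS2 are in the inner wall list, RRT12 in the outer wall list and SMK1 in the list of regulators.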

How the data were processed

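For 54 libraries the authors deposited a table of raw, unnormalized gene counts. Per the labels and the study's methods, libraries were made with a directional kit and sequenced in pairs, reads of ribosomal RNA were removed, and the rest were aligned to S288c with STAR and counted. Versions, annotation and strand setting are not given in the sources used here, and the R64 build of the sequences may differ from the one counted on. Groups came from the labels.

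R 4.3.3 with edgeR 4.0.16 was used, and Python 3.11.15 for counts and figures. The 18 groups of both strains were fitted together on genes that reached 3 CPM in 3 or more libraries. Each strain was also fitted alone, where 0.5 CPM in 3 or more libraries was required. edgeR's quasi-likelihood test (robust, TMM factors, 1 mean per group) was followed by Benjamini-Hochberg adjustment. Groups of 2 libraries took their spread from all groups of the fit. The approximate SE is the absolute log2 fold change over the square root of F. Factors for the 5 left-out libraries came from all 54. Log2 CPM used a prior count of 2. Replicate pairs all differed by more than counting error (lowest chi-square per degree of freedom 4.91 over 54 pairs).

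Intervals of ratios are exact Clopper-Pearson and, like the floor of 3 counts, cover counting error only. Near copies were sought with blastn 2.17.0. The test was tested on simulated data. Alternatives were all 54 libraries, DESeq2 1.42.0 and its size factors, no filter, a replicate block, a threshold of 1 and leaving out each library.

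Members and lists were chosen with earlier results of these data known, and the contrasts of 5h40m with 1h40m in SS and of the change to 1h10m after values were seen. Named genes were the 10, NDT80, SUM1, SMK1, SHC1, SKT5, RRT8 and RRT12, the highest and lowest called gene of each list at 8h30m, and the 10 most similar genes. QRI1, PCM1, GSC2, SPS100, LOH1 and the CPM of single list genes were added after their values were seen.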

Additional observations from a re-analysis of the deposited data

Results flagged for a closer look

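The change from 0h to 8h30m differed between the strains, by the test of the difference itself, for 7 of the 10 genes, all larger in MMTT. Of all genes 2.5% were called in that direction. On the log2 scale, MMTT minus SS, the differences were 7.5 for DTR1, 7.45 for OSW1, 6.76 for LDS2, 4.54 for CDA2, 4.43 for CDA1, 2.59 for OSW2 and 2.35 for DIT2. The change of CDA2 from 0h to 1h10m differed the other way, by -2.62, in a contrast chosen after the values were seen. That call was lost when any of 6 single libraries was left out and with all 54 libraries (adjusted p 0.24).

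Libraries that the study left out were summed too. The summed level of the 10 genes was 2629.5 CPM in MMTT 45m replicate 2, 556 CPM in MMTT 2h30m replicate 3 and 322 CPM in MMTT 5h40m replicate 3. Each was above all SS libraries of its time in the study's set, whose sums reached 270.5, 347 and 292 CPM at these times. In MMTT 5h40m replicate 3 CHS3 alone stood at 184 CPM. There LDS1 (4.15 CPM), DTR1 (4.62), OSW1 (3.23) and LDS2 (7.85) lay below the other MMTT libraries of 5h40m, as did CDA1, CDA2 and OSW2, while DIT1, DIT2 and CHS3 lay above them. MMTT 2h30m replicate 3 had 303349 reads in all, with 3 of DTR1 and 4 of OSW1. MMTT 45m replicate 2 was nearest to the MMTT 8h30m group. No group held the 4 libraries needed to look for a single deviating library by gap and range. None of these differences was given a cause here.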

How the results depend on the processing

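The 8 genes called higher in MMTT at 8h30m stayed 8 under all 54 libraries, DESeq2, DESeq2 size factors, no filter, the replicate block, a threshold of 1 and each of the 6 libraries of that time left out. Shares of all genes called were computed for the main setting only, so the counts under other settings have none beside them. The count of 28 over 9 times became 26 with all 54 libraries, 33 with DESeq2, 27 without the filter and 29 with the replicate block, and 26 to 32 when single libraries were left out. The interaction, called for 7, was called for 3 with all 54 libraries and for 5 to 8 when single libraries were left out. The larger change to 8h30m in MMTT, called for 7, was called for 3 to 7 in that way, with 3 only without SS 0h replicate 2, for 5 with all 54 libraries and for 8 with DESeq2. When single libraries were left out, the 23 calls in MMTT against 0h ranged from 21 to 24 and the 7 in SS from 7 to 8. With all 54 libraries they were 20 and 7, the 20 including CDA2, DTR1, LDS1, LDS2 and OSW1 at 45m. The 7 at 8h30m against 0h and the 8 since 5h40m were the same counts without any single library. No called value changed sign, but CDA2 at 45m, MMTT over SS, which was not called (-1.82, adjusted p 0.0072), turned to 1.79 (adjusted p 0.045) with all 54 libraries. Whether equal replicate numbers pair the libraries was not settled, since no pairs of unequal number were compared. Over 22 pairs of equal number between the strains, deviations from the group mean correlated at -0.07 on average, and 3 were over 0.1. Between times, 32 of 85 such pairs within MMTT and 19 of 93 within SS were over 0.1, with means of 0.04 and -0.02. Counts of 3 reads or fewer in SS limit the folds of LDS1, OSW1 and DTR1. The cause of the changed counts was not tested.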
